A study of Mus musculus with 20 samples.

Results

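Drd1, Drd2, Adora2a, Ppp1r1b, Rgs9, Tac1, Penk, Pdyn and Pde10a are 9 genes by which the projection neurons of the striatum are usually recognised, and they were followed here in prefrontal cortex and hippocampus, where such neurons are not resident. They were picked by symbol, and all 9 were found in both count tables, among 55487 gene symbols in the prefrontal cortex table and 57180 gene identifiers in the hippocampal table. All 9 passed the filter on low counts in each tissue, with at least 68 counts per library in prefrontal cortex and at least 65 in hippocampus.

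The libraries were poly(A)-selected RNA from wild-type mice of the inbred strain C57/BL6, aged 2 to 6 months. Prefrontal cortex came from males, 24 hours after intraperitoneal LPS (lipopolysaccharide from the outer membrane of bacteria, which sets off systemic inflammation) at 5 mg/kg (n = 4) or 0.9% saline (n = 4). Hippocampus was dissected 24 hours after 0.2 mg/kg nicotine in 6 mice and after 0.9% saline in the other 6. Library totals lay between 36371084 and 46106526 counts in the former tissue and between 51969343 and 68196280 in the latter. Each tissue was its own batch with its own table, so LPS and nicotine were tested only within a tissue and levels in both tissues are set side by side with no test.

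In prefrontal cortex, 4 of the 8 records name opposite treatments in the title and in the column name of the count table. Groups follow the column names, which make saline libraries of Sample 1L, Sample 3L, Sample 6L and Sample 8L. The LPS libraries are then Sample 2L, Sample 4L, Sample 5L and Sample 7L. Sample 2L, Sample 4L, Sample 6L and Sample 8L carry the opposite treatment in their titles. Tests of LPS on the members and on their receptors and partners are also given for the 4 libraries whose labels agree.

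Striatal projection neurons fall into a pair of classes that respond to dopamine in opposite ways. Neurons of the direct pathway carry the dopamine receptor Drd1 and make the peptide precursors Tac1 (substance P) and Pdyn (dynorphin), and those of the indirect pathway carry the receptors Drd2 and Adora2a and make Penk (enkephalin). Both classes share Ppp1r1b, a phosphoprotein that inhibits protein phosphatase 1 when protein kinase A is active, Rgs9, which speeds the shut-off of G proteins, and Pde10a, which breaks down cyclic nucleotides. Several of these genes are also active outside the striatum: cortical interneurons make Tac1 and Penk, dentate granule cells make Pdyn and Penk, and some deep-layer cortical neurons carry Drd1.

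On build mm10 (GENCODE vM21 gene models), the direct pathway genes lie at chr13:54051183-54055705 (Drd1, minus strand), chr6:7554879-7565834 (Tac1, plus) and chr2:129686565-129699844 (Pdyn, minus). Those of the indirect pathway lie at chr9:49340627-49408177 (Drd2, plus), chr10:75316877-75334784 (Adora2a, plus) and chr4:4133531-4138819 (Penk, minus). The shared genes lie at chr11:98348404-98357796 (Ppp1r1b, plus), chr11:109225355-109298129 (Rgs9, minus) and chr17:8525372-8986648 (Pde10a, plus). Only Ppp1r1b and Penk overlap another annotated gene in exons, in each case a non-coding transcript on the opposite strand, over 460 and 233 bases. Those transcripts held 287 and 120 counts over the prefrontal cortex libraries, against 99812 for Ppp1r1b and 103901 for Penk.

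Since the 9 genes moved together between the prefrontal cortex libraries, the sequences before their start sites were searched for shared cyclic AMP response motifs. RefSeq windows (GRCm38.p6, 250 bases before to 50 after a start site) were matched for 6 of the 9 genes: Drd1, Drd2, Rgs9, Tac1, Pdyn and Pde10a. The 250 bases before the outermost RefSeq start site are shown for the 3 direct pathway genes, which share a cell class, at chr6:7554811-7555060 (plus strand), chr2:129699939-129700188 (minus) and chr13:54055659-54055908 (minus), in lower case with matches in capitals.
Tac1: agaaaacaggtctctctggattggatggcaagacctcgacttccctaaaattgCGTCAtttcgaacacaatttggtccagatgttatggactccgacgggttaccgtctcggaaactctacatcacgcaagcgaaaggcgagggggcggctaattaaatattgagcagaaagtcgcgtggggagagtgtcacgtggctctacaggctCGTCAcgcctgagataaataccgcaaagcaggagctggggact
Pdyn: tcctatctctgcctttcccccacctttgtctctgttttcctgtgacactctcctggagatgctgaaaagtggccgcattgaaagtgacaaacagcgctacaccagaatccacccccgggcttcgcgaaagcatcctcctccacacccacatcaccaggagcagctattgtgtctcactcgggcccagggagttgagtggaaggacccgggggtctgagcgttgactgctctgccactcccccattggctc
Drd1: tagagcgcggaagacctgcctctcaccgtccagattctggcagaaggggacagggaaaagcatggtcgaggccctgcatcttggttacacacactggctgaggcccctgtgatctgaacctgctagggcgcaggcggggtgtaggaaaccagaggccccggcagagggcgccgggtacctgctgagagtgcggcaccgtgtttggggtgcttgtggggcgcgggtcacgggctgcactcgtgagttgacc
The capitals mark the core TGACG, read here as CGTCA on the other strand, which begins 197 and 43 bases before the RefSeq start site of Tac1. The GENCODE models of Tac1 and Drd1 begin inside these windows, at chr6:7554879 and chr13:54055705, so the latter core lies within the GENCODE gene. No window of the other 5 genes held it on either strand, and no window of the 6 held the full element TGACGTCA, of which TGACG is a part, or the AP-1 motif TGANTCA. Of 32851 mouse windows of 300 bases, 20.8% hold the core, 1.79% the full element and 7.81% the AP-1 motif. These matches are a description of letters in a window.

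In prefrontal cortex all 9 genes varied widely between libraries, and they did so in nearly the same order. Drd1 stood at 8.93 CPM (counts per library total, scaled with TMM factors) in saline Sample 1L, 35.5 in 3L, 55.7 in 6L and 16.2 in 8L, and at 57.0 in LPS Sample 2L, 40.5 in 4L, 63.4 in 5L and 5.81 in 7L. The lowest and the highest library both carried LPS, so the LPS range enclosed the saline range. Tac1 followed a similar order at 11.7, 45.6, 55.3 and 24.2 CPM in saline Samples 1L, 3L, 6L and 8L, and at 47.5, 35.9, 61.4 and 9.80 CPM in LPS Samples 2L, 4L, 5L and 7L. Pdyn spread least, from 14.6 CPM in LPS Sample 7L to 56.0 in saline Sample 6L, a ratio of 3.83 between the highest and the lowest library.

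The indirect pathway receptors spread most. Drd2 stood at 3.08, 21.3, 39.1 and 8.86 CPM in saline Samples 1L, 3L, 6L and 8L and at 37.8, 21.1, 40.1 and 1.74 CPM in LPS Samples 2L, 4L, 5L and 7L. Its highest library was 23.1 times its lowest. Adora2a, the adenosine receptor that opposes Drd2, ran at 5.82, 30.5, 58.2 and 14.4 CPM with saline and at 45.5, 25.7, 50.6 and 2.41 CPM with LPS in the same order, a ratio of 24.2 between extremes. Penk ranged from 145 CPM in saline Sample 1L to 587 CPM in LPS Sample 5L, a ratio of 4.05.

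Among the shared signalling genes, Ppp1r1b stood at 82.7, 212, 333 and 128 CPM in saline Samples 1L, 3L, 6L and 8L and at 518, 392, 611 and 145 CPM in LPS Samples 2L, 4L, 5L and 7L. Its 3 highest libraries all carried LPS, and LPS Sample 7L lay inside the saline range. Rgs9 ranged from 23.6 to 125 CPM and Pde10a from 57.3 to 263 CPM. For all 9 genes the 3 lowest libraries were saline Samples 1L and 8L and LPS Sample 7L, and for 8 of 9, all but Ppp1r1b, the 3 highest were LPS Samples 2L and 5L and saline Sample 6L. In bulk tissue, fewer cells of a type and less RNA per cell cannot be told apart.

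**Figure D1:**
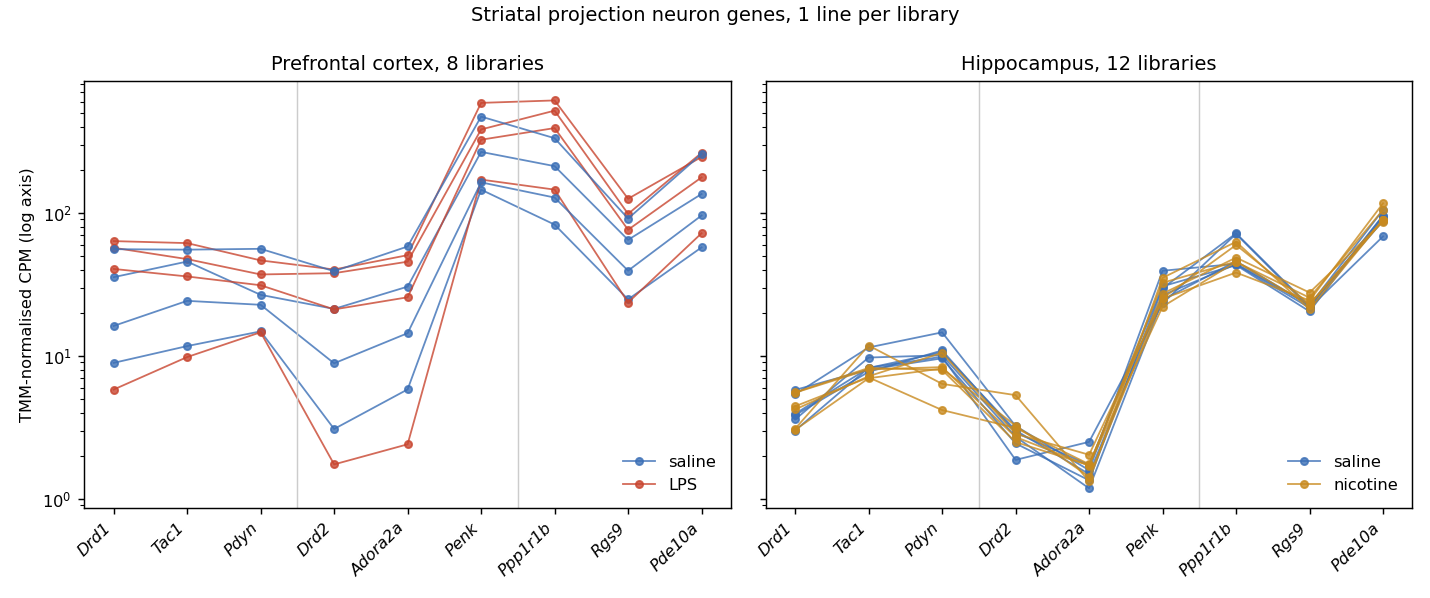
TMM-normalised CPM (log axis) of the 9 genes, with direct pathway, indirect pathway and shared genes separated by vertical lines, 1 line per library, for 8 prefrontal cortex and 12 hippocampal libraries. In prefrontal cortex the lines keep much the same order over ranges of 3.83 to 24.2 times, with both treatments at the top and at the bottom, while in hippocampus the ratios are 1.35 to 3.50.

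In hippocampus the ratio of the highest to the lowest library was smaller than in prefrontal cortex for each of the 9 genes, from 1.35 to 3.50, and the receptors were low. Drd1 had a lowest, median and highest value of 3.00, 3.89 and 5.77 CPM with saline and of 3.03, 4.33 and 5.55 CPM with nicotine. Drd2 lay at 1.87, 2.81 and 3.23 CPM with saline and at 2.49, 2.99 and 5.31 CPM with nicotine, and Adora2a at 1.18, 1.54 and 2.50 CPM with saline and at 1.33, 1.71 and 2.03 CPM with nicotine. The groups overlapped for all 3 receptors. Rgs9 was the most even member, between 20.4 and 27.7 CPM over the 12 libraries, a ratio of 1.35. Pdyn was the least even at 3.50, near its ratio in prefrontal cortex, and Pde10a at 68.4 to 117 CPM lay above prefrontal cortex Sample 1L (57.3 CPM) in every library.

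Per kilobase of annotated exon, which allows levels to be compared between genes, Penk was highest in saline prefrontal cortex at 160 ± 91.5 CPM per kb (SD, n = 4) and Ppp1r1b followed at 64.5 ± 37.5. The other 7 genes lay between 7.09 ± 6.25 (Drd2) and 10.6 ± 6.77 CPM per kb (Pde10a). These genes rose and fell together between libraries, so this SD does not judge a difference between genes within a library. Pde10a lay above Drd2 in every saline library, at 4.46 against 1.21 in Sample 1L and 10.5 against 8.36 in 3L. It stood at 20.1 against 15.3 CPM per kb in Sample 6L and 7.46 against 3.48 in 8L. In saline hippocampus Ppp1r1b at 18.2 ± 4.83 (SD, n = 6) and Penk at 17.8 ± 3.55 CPM per kb did not differ beyond their spread, and Pde10a came next at 7.07 ± 0.956. Pdyn at 3.79 ± 0.641 and Rgs9 at 3.42 ± 0.125 were again within their spread, and Tac1 followed at 2.62 ± 0.42 CPM per kb. The 3 receptors were lowest, with Drd1 at 1.17 ± 0.298, Drd2 at 1.06 ± 0.19 and Adora2a at 0.535 ± 0.151 CPM per kb, and Drd1 and Drd2 did not differ beyond their spread.

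The spread within treatment groups set the genes apart from most others in prefrontal cortex. Their SD of log2 CPM within groups ran from 0.757 (Penk) to 1.87 (Drd2), with a median of 0.952 against 0.193 over the 17760 genes tested. Only 3.84% of the genes tested had an SD above that of Penk, the lowest of the 9. In hippocampus the SD ran from 0.105 (Rgs9) to 0.37 (Drd1), with a median of 0.299 against 0.186 over 18873 genes. Rgs9 had an SD above that of 18.6% of genes, and the other 8 members above that of 51.8% (Pde10a) to 78.4% (Drd1).

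In prefrontal cortex all 36 pairs of genes were positively correlated over the 8 libraries. Pearson's r of log2 CPM ran from 0.791 (Adora2a with Ppp1r1b) to 0.996 (Drd1 with Drd2), with a median of 0.945, and Spearman's rho from 0.738 to 1.00 with a median of 0.905. By exact permutation tests (2-sided, 40320 orders) with Benjamini-Hochberg adjustment over the 36 pairs, the largest adjusted p was 0.0174 for r and 0.0458 for rho. The members were chosen with earlier results of these data known, so these p values are no independent support for a shared movement. Without the 2 libraries farthest from the median in the first gene of each pair, r lay at 0.699 or above with a median of 0.925. Without Samples 1L and 7L, the farthest in the mean of the members, r lay at 0.719 or above with a median of 0.929. After the mean of each treatment group was subtracted, r ran from 0.919 to 0.999 with a median of 0.974. Drd1 and Adora2a, which mark opposite pathway classes, reached 0.984, beside 0.983 for Drd1 and Tac1, which mark the same class.

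In hippocampus the pairs showed no common pattern. Pearson's r over 12 libraries ran from -0.681 (Adora2a with Pde10a) to 0.591 (Tac1 with Penk), with a median of -0.041, and 15 of 36 pairs were above 0. By permutation tests (2-sided, 100000 permutations), 4 pairs had an unadjusted p under 0.05 and 0 of 36 passed after adjustment, the smallest adjusted p being 0.334. Spearman's rho ran from -0.531 to 0.483, with a smallest adjusted p of 0.951. Of the 4 pairs, Tac1 with Penk rested on Samples 10N and 4N, the farthest in Tac1, since r was -0.171 without them. Rgs9 with Pdyn (-0.616) went to 0.023 without Samples 8N and 12N, the farthest in Rgs9, and Adora2a with Pde10a to -0.23 without Samples 2N and 6N. Ppp1r1b with Pde10a went from -0.664 to -0.577 without Samples 5N and 2N.

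**Figure D2:**
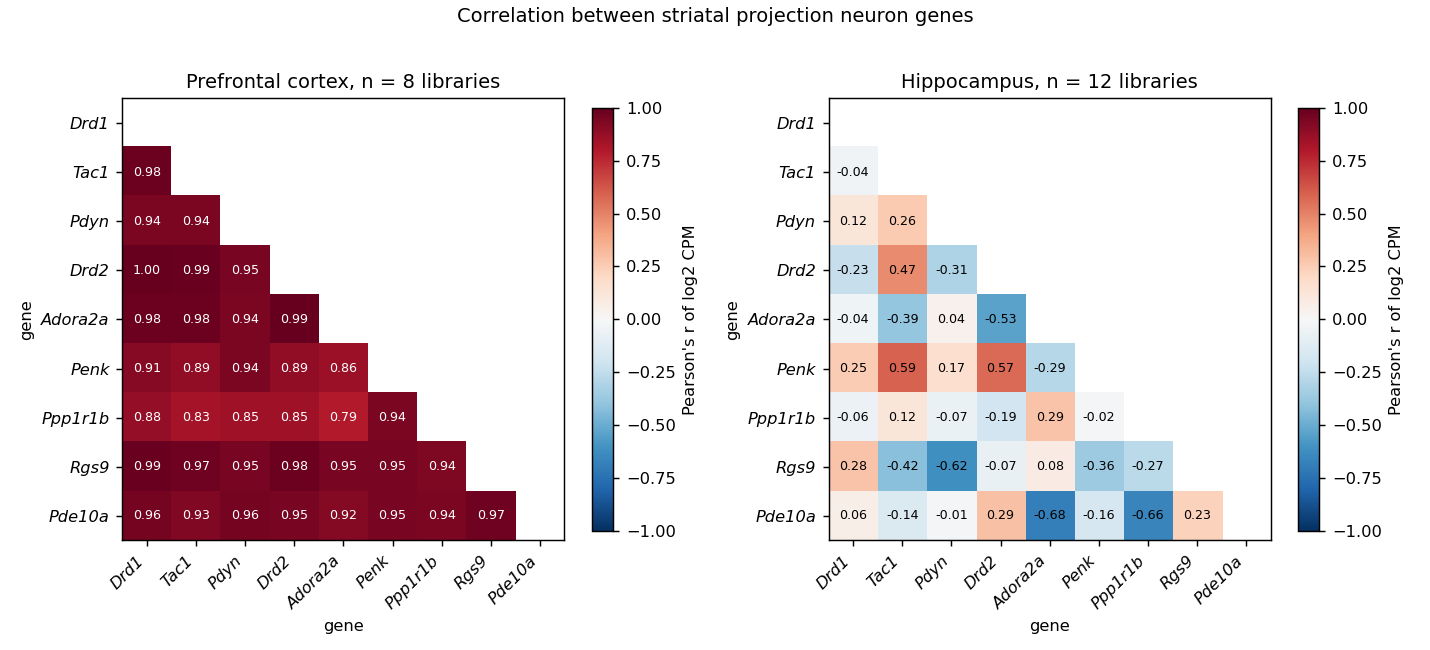
Pearson's r of log2 CPM for each of the 36 pairs of genes over the 8 prefrontal cortex libraries and the 12 hippocampal libraries, on a colour scale from -1 to 1. In prefrontal cortex every pair lies at 0.791 or above, while in hippocampus the pairs range from -0.681 to 0.591 around a median of -0.041.

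Other striatal genes followed the members in prefrontal cortex. Among 14647 non-member genes with at least 1 CPM on average, those whose log2 CPM was most alike the members' standardised mean over the 8 libraries included Gpr6 (r = 0.994), Clic6 (0.991), Syndig1l (0.982), Sh3rf2 (0.982), Slc10a4 (0.980), Slc5a7 (0.978) and Cd4 (0.976). Gpr6 is an orphan receptor of striatal neurons, Slc5a7 is the choline transporter of cholinergic neurons, and Cd4 is a T-cell coreceptor. Clic6 stands in the list of choroid plexus markers used here and not among the other striatal genes. Gpr6 ranged from 1.33 CPM in LPS Sample 7L to 18.5 in LPS Sample 5L. Of 20 other striatal genes, all 20 at or above 1 CPM on average, 14 were among the 50 genes most alike and 16 among the 100. The members and this list were chosen with earlier results of these data known, so these counts are a description and no independent support. The exceptions with the lowest r were Chrm4 (0.514), Actn2 (0.585) and Ebf1 (0.660), named after their values were seen.

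The 4 other striatal genes with the widest range in prefrontal cortex were Six3, Isl1, Sh3rf2 and Ido1. Six3 and Isl1, transcription factors of the developing striatum, stood at 0.154 and 0.0512 CPM in LPS Sample 7L and reached 20.02 and 4.32 CPM in LPS Sample 5L. Sh3rf2 ran from 0.385 CPM in saline Sample 1L to 11.7 in LPS Sample 2L, and Ido1, a tryptophan-degrading enzyme, from 0.0769 CPM in saline Sample 1L to 2.40 in LPS Sample 2L. The lowest library of each of the 4 genes was saline Sample 1L or LPS Sample 7L, and the highest was LPS Sample 2L or 5L.

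Markers of cholinergic neurons, which are sparse in cortex and include the large interneurons of the striatum, moved in the same direction. The summed level of 5 such genes ran from 0.436 CPM in saline Sample 1L and 0.793 in LPS Sample 7L to 16.5 CPM in LPS Sample 5L, and Slc18a3 had 0 counts in all 8 libraries. Summed markers of cortical projection neurons (8 genes) were present throughout, between 1637 and 2298 CPM with saline and between 1912 and 2370 CPM with LPS. The lowest value, 1637 CPM, fell in saline Sample 6L, a library with high members, while LPS Sample 2L, another such library, held 2307 CPM. After seeing the data, 90 relations between a member and the mean log2 CPM of a list were computed over the 8 libraries. For cortical projection neurons r ran from -0.530 (Penk) to -0.308 (Ppp1r1b), with adjusted p of 0.436 or above by permutation test over the 90. For oligodendrocyte markers r ran from -0.032 (Ppp1r1b) to 0.505 (Adora2a). With the mean of each treatment group subtracted it ran from 0.729 (Pdyn) to 0.815 (Penk). Some inhibitory interneurons make Tac1 and Penk. Summed interneuron markers (10 genes) lay between 1610 and 2169 CPM with saline and between 1115 and 1651 CPM with LPS. Their mean log2 CPM had r from -0.543 (Ppp1r1b) to -0.135 (Pdyn) with the members (same test, adjusted p of 0.436 or above). Without the 2 libraries farthest in that mean, r ran from -0.147 (Ppp1r1b) to 0.364 (Adora2a). Whether interneurons contributed to the values of the members was not tested.

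In hippocampus none of 16 other striatal genes at or above 1 CPM was among the 100 genes most alike the members. The 8 most alike were Sqle (r = 0.879), Slc3a2 (0.857), H2afx (0.848), Srprb (0.821), Cdkn1a (0.820), Lrpap1 (0.817), Fosb (0.814) and Tmem132e (0.812), and 5 of them, Sqle, Slc3a2, H2afx, Srprb and Lrpap1, differed by at most 1.34 times between libraries. Among the other striatal genes with at least 1 CPM on average there, Gpr6 ran from 0.41 to 1.89 CPM, Scn4b from 8.27 to 24.3 CPM and Strip2 from 20.5 to 43.8 CPM. Six3 (0.0566 to 2.55 CPM) and Sh3rf2 (0 to 0.752 CPM), below that level on average, ranged more widely and are named after their values were seen.

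LPS against saline was then tested in prefrontal cortex. None of the 9 genes passed edgeR's quasi-likelihood test, which called 41.2% of the 17760 genes tested. With edgeR 1 of the 9 was at unadjusted p under 0.05, and DESeq2 called 0, against 35.1% of the genes with an adjusted p. Ppp1r1b came closest, at 189 ± 110 CPM with saline and 417 ± 202 CPM with LPS (SD, n = 4 each), with a log2 fold change of 1.14 (SE 0.44) and an edgeR adjusted p of 0.0553. It reached the threshold without saline Sample 6L (log2 fold change 1.56, edgeR adjusted p = 0.018) and without LPS Sample 7L (1.42, edgeR adjusted p = 0.011). Over its other settings with all libraries kept and no covariate the edgeR or DESeq2 adjusted p ran from 0.00947, with no filter on low counts, to 0.105, with a replicate block, except that it was 0.9999 with libraries grouped by title, where the log2 fold change was 0.01. The other 8 genes had log2 fold changes from 0.10 (Pdyn, SE 0.38) to 0.55 (Rgs9, SE 0.45), and their edgeR adjusted p values were 0.337 or above. Drd1 stood at 29.1 ± 21.0 CPM with saline and 41.7 ± 25.8 CPM with LPS, a log2 fold change of 0.52 (SE 0.62), and its 95% interval extended 1.35 to either side. These intervals are wide: for Drd2 and Adora2a they extended 1.67 and 1.60 to either side of 0.48 and 0.19. In the 4 libraries whose labels agree 0 of 9 passed edgeR's test (1 at unadjusted p under 0.05), against 31.8% of all genes, and 0 of 9 passed when libraries were grouped by title, where edgeR called 0 genes in all.

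The 20 other striatal genes were used to set libraries of a like striatal level against each other. Their mean log2 CPM, which contains no member, ran from 3.39 to 5.39 in the saline libraries and from 3.30 to 5.51 in the LPS libraries. Of the 20 genes 0 passed edgeR's LPS test, against 41.2% of all genes, and 3 were at unadjusted p under 0.05, against 8806 of 17760. With so wide a spread within groups, these counts do not show that the 20 genes are untouched by LPS. With the mean of the 20 genes as a covariate, 4 of the 9 members passed, against 41.8% of all genes tested, a share near the background. Ppp1r1b was higher with LPS at a given striatal level, by 0.80 on the log2 scale (SE 0.075, edgeR adjusted p = 3.57e-05). Adora2a was lower, with a log2 fold change of -0.67 (SE 0.11, edgeR adjusted p = 0.00102), as were Drd2 (-0.38, SE 0.11, edgeR adjusted p = 0.0188) and Tac1 (-0.30, SE 0.11, edgeR adjusted p = 0.0494). Drd1 (-0.14, SE 0.11), Rgs9 (0.12, SE 0.081), Penk (0.24, SE 0.15), Pdyn (-0.15, SE 0.13) and Pde10a (0.18, SE 0.099) did not pass, with edgeR adjusted p values of 0.176 or above.

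**Figure D3:**
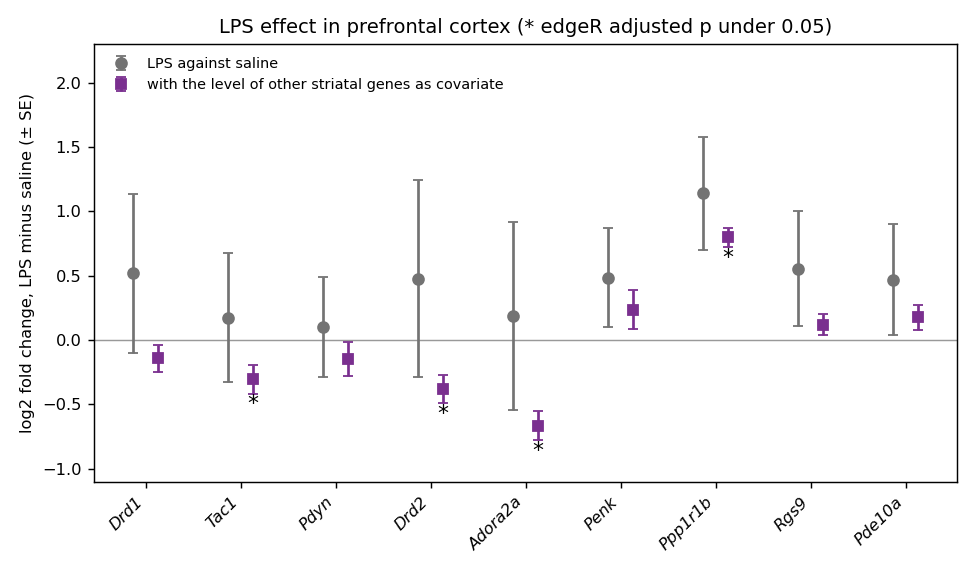
Log2 fold change, LPS minus saline, of the 9 genes in prefrontal cortex (points, with SE bars) from edgeR without and with the mean log2 CPM of 20 other striatal genes as a covariate, where a star marks an adjusted p under 0.05 with the covariate. The SE of Drd2 falls from 0.77 to 0.11 with the covariate, and Ppp1r1b is at 0.80 while Adora2a is at -0.67.

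The calls of Ppp1r1b and Adora2a with the covariate held in each of the 8 fits without 1 library, with log2 fold changes of 0.70 to 0.86 and of -0.78 to -0.48. Drd2 lost its call without saline Sample 3L (-0.33, edgeR adjusted p = 0.0591) and without LPS Sample 7L (-0.25, edgeR adjusted p = 0.165). Tac1 kept its call in 2 of the 8 fits, without LPS Sample 5L and without saline Sample 6L, and its log2 fold change ran from -0.39 to -0.20. Pde10a passed without saline Sample 6L (0.32, edgeR adjusted p = 0.0118). A covariate made of cholinergic genes, added after seeing the data, called the same 4 genes in the same directions, against 38.9% of all genes, at 0.53 for Ppp1r1b, -1.07 for Adora2a, -0.81 for Drd2 and -0.62 for Tac1. In the 4 libraries whose labels agree, a fit with the striatal covariate, also added after seeing the data, left 1 residual degree of freedom, so that its p values rest on the spread pooled over genes. There 7 of the 9 passed, against 40.7% of all genes: Ppp1r1b (0.87), Penk (0.45) and Pde10a (0.33) higher and Adora2a (-0.80), Drd2 (-0.56), Drd1 (-0.34) and Tac1 (-0.32) lower.

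The values behind these fits can be seen in libraries with like striatal levels, which were paired after their values were seen, so no test is given. Saline Sample 6L and LPS Sample 2L had mean striatal levels of 5.39 and 5.44, and Drd1 at 55.7 and 57.0 CPM and Drd2 at 39.1 and 37.8 CPM were close. In the same libraries Adora2a stood at 58.2 and 45.5 CPM and Ppp1r1b at 333 and 518 CPM. Saline Sample 3L and LPS Sample 4L, at 4.80 and 4.99, held Adora2a at 30.5 and 25.7 CPM and Ppp1r1b at 212 and 392 CPM. Drd1 stood there at 35.5 and 40.5 CPM and Drd2 at 21.3 and 21.1 CPM. At the bottom, saline Sample 1L and LPS Sample 7L, at 3.39 and 3.30, held Adora2a at 5.82 and 2.41 CPM and Ppp1r1b at 82.7 and 145 CPM. In these 2 libraries Drd1 stood at 8.93 and 5.81 CPM and Drd2 at 3.08 and 1.74 CPM.

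**Figure D4:**
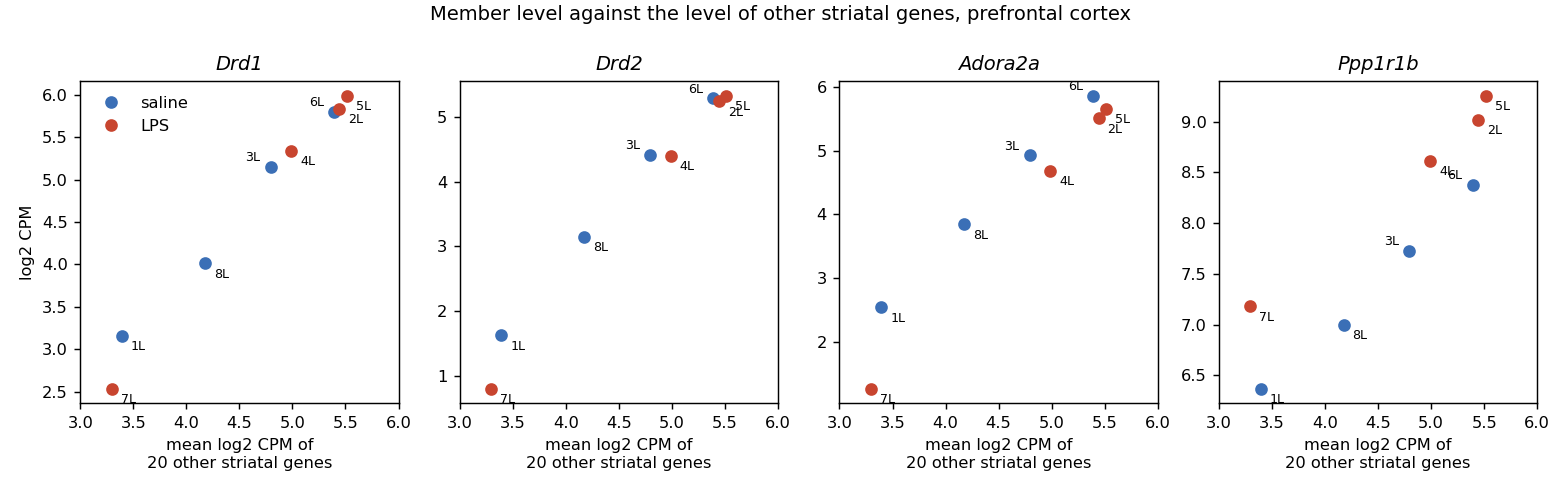
Log2 CPM of Drd1, Drd2, Adora2a and Ppp1r1b against the mean log2 CPM of 20 other striatal genes in the 8 prefrontal cortex libraries, coloured by treatment and labelled by library. Drd1 rises with the striatal level in both treatments along much the same course, while the LPS libraries lie higher than saline libraries of like level for Ppp1r1b (518 against 333 CPM in Samples 2L and 6L) and lower for Adora2a (45.5 against 58.2 CPM).

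The members did not rise with the striatal level at the same rate. In a linear model of log2 CPM on that level and treatment, the slope was 1.96 (SE 0.058) for Drd2, 1.85 (SE 0.068) for Adora2a and 1.47 (SE 0.066) for Drd1, and 1.14 (SE 0.073) for Tac1. It was 1.00 (SE 0.045) for Rgs9, 0.94 (SE 0.046) for Ppp1r1b, 0.92 (SE 0.072) for Pde10a, 0.77 (SE 0.097) for Pdyn and 0.75 (SE 0.12) for Penk. The 20 other striatal genes taken singly at a given level of their own mean had treatment terms from -0.69 (Rxrg) to 0.84 (Lrrc10b), both named after their values were seen. In that linear model the term of Ppp1r1b (0.80) lay near the upper end of this range and that of Adora2a (-0.70) just beyond the lower end. The 20 genes make up the mean on which they were fitted and the members do not, so the terms are not strictly alike.

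The receptors of the members' transmitters and their signalling partners were a list of 17 genes, of which 16 were tested. With LPS 3 were higher and 2 lower, against 41.2% of all genes, with a median log2 fold change of -0.14 beside 0.0092 over all genes tested. The 5 genes are named after their values were seen. Oprk1, the receptor of dynorphin, rose from 5.84 ± 2.54 to 12.5 ± 5.97 CPM (log2 fold change 1.10, SE 0.40, edgeR adjusted p = 0.0469), and its groups overlapped. Drd5, the other receptor of the Drd1 class, rose from 3.40 ± 0.47 to 4.86 ± 0.786 CPM (0.51, SE 0.17, edgeR adjusted p = 0.0313), and Adora1 from 209 ± 8.91 to 240 ± 20.2 CPM (0.20, SE 0.073, edgeR adjusted p = 0.0444). Gnb5, the G protein subunit that binds Rgs9, fell from 173 ± 20.5 to 112 ± 12.2 CPM (-0.63, SE 0.099, edgeR adjusted p = 0.000564), and Adora2b from 3.08 ± 0.564 to 2.05 ± 0.275 CPM (-0.59, SE 0.20, edgeR adjusted p = 0.0307). The groups of Drd5, Adora1, Gnb5 and Adora2b did not overlap. These genes were picked by their calls, and the share of all genes without overlap is not given, so this does not set them apart. Oprk1 was lowest where the members were low, at 3.64 CPM in saline Samples 1L and 8L and 3.92 in LPS Sample 7L, and highest in LPS Sample 5L at 17.6 CPM. The mean log2 CPM of the list was correlated with each member over the 8 libraries, with r from 0.801 (Ppp1r1b) to 0.979 (Pdyn). In such a mean low genes weigh as much as abundant ones. The summed CPM of the list ran only from 1366 CPM in LPS Sample 7L to 1595 CPM in LPS Sample 2L. It was 1476 CPM in saline Sample 1L, where the members were low, and 1427 CPM in LPS Sample 5L, where they were high. With the other striatal genes as a covariate, Oprk1 (0.69, edgeR adjusted p = 0.0126), Gnb5 (-0.64, edgeR adjusted p = 0.000613) and Adora2b (-0.59, edgeR adjusted p = 0.0402) kept their calls. Drd5 (0.49, edgeR adjusted p = 0.0525) and Adora1 (0.20, edgeR adjusted p = 0.0568) lost theirs, and Prkar2b, a protein kinase A subunit, passed (-0.45, edgeR adjusted p = 0.00213). In the 4 libraries whose labels agree only Gnb5 of the 16 passed without the covariate (-0.58, edgeR adjusted p = 0.00337), and Gnb5, Prkar2b and Ppp1ca, all lower, passed with it. The 2 most abundant genes of the list, Rgs7bp and Ppp1cb, did not pass.

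Nicotine against saline was tested in hippocampus in the same way. None of the 9 genes passed edgeR's test, which called 0% of the 18873 genes tested (1577 at unadjusted p under 0.05, of which 2 were members). DESeq2 called 15 genes and 0 members. Pdyn, which dentate granule cells make, had the largest difference, at 10.9 ± 1.85 CPM with saline and 7.58 ± 2.13 CPM with nicotine (SD, n = 6 each), a log2 fold change of -0.53 (SE 0.17, edgeR unadjusted p = 0.00837, adjusted p = 0.555). Its lowest, median and highest values were 9.60, 10.3 and 14.6 CPM with saline and 4.18, 8.06 and 10.5 CPM with nicotine, so the groups overlapped. Over the fits without 1 library its log2 fold change ran from -0.64 to -0.40, with edgeR adjusted p values from 0.317 to 0.862. Summed markers of dentate granule cells (6 genes) lay between 522 and 688 CPM with saline and between 354 and 576 CPM with nicotine, and their part in the values of Pdyn was not tested. Rgs9 stood at 21.9 ± 0.801 and 24.0 ± 2.33 CPM, a log2 fold change of 0.14 (SE 0.064, edgeR unadjusted p = 0.0485, adjusted p = 0.593), and the other 7 genes had edgeR adjusted p values of 0.678 or above. With the other striatal genes as a covariate, 0% of all genes and 0 of the 9 members passed edgeR's test (2 members at unadjusted p under 0.05).

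Within hippocampus the members' high values fell in different libraries. Ppp1r1b stood at 71.2 CPM in saline Sample 2N and 71.8 in 5N, and at 62.7 CPM in nicotine Sample 10N and 59.6 in 11N, while the other 8 libraries lay between 38.2 and 48.6 CPM. The same 4 libraries held summed choroid plexus markers (8 genes) of 2112, 5667, 1998 and 3507 CPM, against 168 to 589 CPM in the other 8. They also held the 4 highest mean levels of the other striatal genes, between 3.69 and 4.04 against 3.42 to 3.60. Of the genes in that mean of logs, 2 that were below 1 CPM on average had the steepest slopes on it, Six3 (7.10) and Sh3rf2 (5.83), named after their values were seen. Six3 stood at 2.04, 2.52, 2.55 and 1.48 CPM in Samples 2N, 5N, 10N and 11N and at most at 0.583 CPM in the others. The summed CPM of the list was no higher in these 4, at 798, 752, 838 and 747 CPM, than in the others, at 734 to 854 CPM. Drd1 in the 4 libraries stood at 3.00, 5.77, 3.09 and 4.21 CPM and Drd2 at 1.87, 2.44, 5.31 and 2.85 CPM. After seeing the data, 81 relations between a member and the mean log2 CPM of a list were computed over the 12 libraries. Ppp1r1b rose with the choroid plexus mean (r = 0.921, permutation test adjusted over the 81, p = 0.0308). With the mean of the other striatal genes it had r = 0.862 (same test, adjusted p = 0.0539). For both lists rho was 0.881 (permutation test, adjusted p = 0.0138). Whether choroid plexus RNA was the source of the Ppp1r1b values was not tested. Penk and Pdyn were highest in saline Sample 4N, at 39.3 and 14.6 CPM, the library with the highest dentate granule markers (688 CPM) and the lowest oligodendrocyte markers (2442 CPM, against 4259 to 7763 CPM in the others). Over the 12 libraries the mean log2 CPM of the dentate granule markers rose with Pdyn (r = 0.738, rho = 0.839). By permutation tests adjusted over the same 81 relations, p was 0.133 for r and 0.0305 for rho. Both Pdyn and these markers were lower with nicotine, and r was 0.544 after the mean of each treatment group was subtracted. The dentate granule mean did not rise with Penk (r = -0.057, rho = -0.014). Penk stood at 35.1 CPM in nicotine Sample 10N, the library with the lowest dentate granule markers (354 CPM).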

How the data were processed

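Raw, unnormalised counts per gene were deposited by the authors, 1 table per tissue. The tools listed, without roles, are fastp, STAR, featureCounts and DESeq2, and the build listed is mm10, per the submitters' processing notes. Neither the gene models nor the strand setting used in counting is stated in these sources. Prefrontal cortex symbols were used as deposited (120 of 55487 were repeated, none a member). Of 57180 hippocampal identifiers 51884 matched GENCODE vM21, all 9 members included.

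Fits were made per tissue in R 4.3.3 with edgeR 4.0.16 (TMM factors, filterByExpr, quasi-likelihood F-test, Benjamini-Hochberg adjustment over all genes, threshold 0.05), and the fit was tested on simulated data. Correlations used log2 CPM with a prior count of 2. Alternatives were DESeq2 1.42.0, RLE factors, other filters, label groupings, covariates, a replicate block and each library left out. The titles number the libraries as biological replicates, but nothing in the labels shows separate litters, so p-values reflect only how far these libraries differ, which may in part be technical. No libraries of a group agreed within sampling noise (lowest chi-square per degree of freedom 11.0). The 95% interval of a member's log2 fold change reached 0.84 to 1.67 to either side in prefrontal cortex, against 0.14 to 0.41 for hippocampal libraries.

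The members and lists were chosen with earlier results of these data known. Genes named were the 9 members, the 8 non-members most alike them in each tissue, the 4 other striatal genes of widest range with at least 1 CPM on average, at most 2 abundant genes per further list, and others only where said. A gene that this rule names is not reported here.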

Additional observations from a re-analysis of the deposited data

Results flagged for a closer look

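In hippocampus 3 values stood apart from the other 5 libraries of their group by Dixon's criterion, among 36 sets of member and group checked over both tissues, where chance gives about 1 in 20. Drd2 stood at 5.31 CPM in nicotine Sample 10N against 2.49 to 3.25 CPM in the others. Tac1 stood at 11.8 CPM in the same library against 6.97 to 8.22 CPM. Pdyn stood at 14.6 CPM in saline Sample 4N against 9.60 to 10.9 CPM. No prefrontal cortex value stood apart in this way.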

How the results depend on the processing

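In prefrontal cortex 0 of 9 members passed with DESeq2, RLE factors, a filter of 1 CPM, either label grouping and a replicate block (0 of 9, 6064 genes called), and likewise in hippocampus with a replicate block (0 of 9). With no filter on low counts 1 member passed, Ppp1r1b, with 7303 of 30921 genes called. With each library left out 0 to 1 did, with 5703 of 17957 to 8481 of 18021 genes called. With other striatal genes as a covariate 4 passed, and 4 with cholinergic genes, and the log2 fold changes of 5 and 7 members changed sign, 3 of them with a call: Drd2 to -0.38 and -0.81, Adora2a to -0.67 and -1.07, and Tac1 to -0.30 and -0.62. With the former covariate and each library left out, 2 to 5 members passed, while the genes called in all ran from 4626 of 18055 to 8735 of 18021. Without saline Sample 3L 2 members passed, with 6704 of 18072 genes called, and without LPS Sample 7L also 2, with 4626 of 18055 called. In the 4 libraries whose labels agree 7 passed with this covariate, with 7287 of 17883 genes called. The cause of these shifts was not tested. The median correlation stayed between 0.905 and 0.974 in prefrontal cortex and between -0.088 and -0.012 in hippocampus over all settings run. The shared replicate numbers did not pair the libraries: same-numbered libraries correlated at -0.16 to -0.03 in prefrontal cortex and at -0.17 to 0.44 in hippocampus, where both libraries of 1 of 6 numbers had each other as best partner. The covariate is made of striatal genes that may themselves respond to LPS, which was not tested beyond their own tests above, and 8 libraries with 4 per group limit the precision.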
